A study of Mus musculus with 9 samples.

Results

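The tachykinins are a family of small neuropeptides, and the 4 genes described here are the precursors Tac1 and Tac2 and the receptors Tacr1 and Tacr3. They were taken by symbol from a count table of 55335 lines, where each of the 4 has 1 line, and all 4 were among the 21765 genes with enough counts to be tested. The samples are prelimbic cortex of 9 mice, taken on day 14 after an operation and read by bulk RNA sequencing. This medial prefrontal area takes part in the control of pain. In 3 mice the spared nerve injury (SNI) operation, which cuts some branches of the sciatic nerve as a model of neuropathic pain, was combined with R-HNK, the (2R,6R) form of the ketamine metabolite hydroxynorketamine, at 10 mg/kg (R-HNK mice). Another 3 had the same injury and received saline (injured saline mice), and 3 had a sham operation and received saline (sham mice). The sexes, ages, strain and number of R-HNK doses are not given in the sources used here. Each library is 1 mouse, so n = 3 in every group, and libraries held 53624337 to 73586375 counts.

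A tachykinin precursor is cut at pairs of basic residues, and each peptide ends in a shared, amidated tail that the receptors recognise. Tac1 gives substance P and, in part of its splice forms, neurokinin A, while Tac2 of the mouse gives neurokinin B. Substance P acts mainly on the NK1 receptor, encoded by Tacr1, and neurokinin B on the NK3 receptor, encoded by Tacr3, and both receptors signal through Gq to phospholipase C and calcium. In the forebrain Tac1 is abundant in the striatal projection neurons that carry the D1 dopamine receptor, and NK1 receptors are found on striatal cholinergic neurons and on a sparse class of cortical neurons that contain somatostatin and nitric oxide synthase.

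The 3 peptide-coding stretches below show what joins the ligands and why the gene counts cannot part the products of Tac1. Each line runs 5′ to 3′ on the plus strand of GRCm38 (mm10), from the GENCODE transcripts, and covers the codons of the last 10 residues of the peptide and the next 3 codons, which hold the amidation and cleavage signal. Capitals mark the 15 bases of the tail.
substance P: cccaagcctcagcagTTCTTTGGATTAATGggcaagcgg
neurokinin A: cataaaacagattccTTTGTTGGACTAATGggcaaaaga
neurokinin B: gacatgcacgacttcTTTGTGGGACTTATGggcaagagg
The substance P stretch lies in a coding exon of Tac1 at chr6:7556735-7556773. The neurokinin A stretch lies in another coding exon of Tac1 at chr6:7559101-7559139, and the neurokinin B stretch in a coding exon of Tac2 at chr10:127729116-127729154. The tail codons of neurokinin A and neurokinin B were identical at 13 of 15 bases, those of substance P and neurokinin A at 12 and those of substance P and neurokinin B at 10. Of 4 annotated coding transcripts of Tac1, 3 held the substance P stretch and 2 the neurokinin A stretch, so a Tac1 count does not say how much of each peptide's message was present.

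The longest run of identical bases shared by any transcripts of Tac1 and Tac2 was 12, and by those of Tacr1 and Tacr3 29. No other annotated gene overlapped any of the 4 loci. Tac1 lies on chromosome 6 from 7554879 to 7565834, Tac2 on chromosome 10 from 127724478 to 127731768, Tacr1 on chromosome 6 from 82402334 to 82560104 and Tacr3 on chromosome 3 from 134829007 to 134934579.

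Levels between genes were compared as RPKM, the CPM (counts scaled to library size with edgeR's TMM factors) divided by the exon length in kilobases. That length merged all annotated exons of a gene, 3399 bases for Tac1 and 1378 for Tac2, and the transcripts expressed were not determined. Tac1 averaged 7.76 ± 4.12 RPKM in R-HNK mice, 4.48 ± 0.590 in injured saline mice and 12.4 ± 7.28 in sham mice (SD, n = 3 each). Tac2 averaged 5.16 ± 0.785, 4.66 ± 0.841 and 4.64 ± 0.307 RPKM in R-HNK, injured saline and sham mice. By this measure the 2 precursors did not differ beyond their spread in the injured saline mice. In CPM, without scaling for length, Tac1 averaged 15.2 and Tac2 6.43 in those mice. In RPKM the receptors were lower than the precursors in every library. Tacr1 ranged from 0.305 to 1.38 RPKM and Tacr3 from 0.0699 to 0.508 RPKM over the 9 libraries.

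The libraries differed in their level of striatal marker genes, and the tachykinin values have to be read beside that. Drd2 and Adora2a, a dopamine and an adenosine receptor of striatal projection neurons, were both above 10 CPM in R-HNK mice 1 and 3 and sham mice 2 and 3 and in no other library. Those 4 libraries are called striatum-high here and the other 5 striatum-low. The sum of 13 striatal marker genes was 704, 278 and 989 CPM in R-HNK mice 1, 2 and 3, 250 to 291 CPM in the injured saline mice, and 291, 1590 and 1490 CPM in sham mice 1, 2 and 3. None of the 13 passed in edgeR between any groups. In injured saline against sham mice 11 had an unadjusted edgeR p under 0.05, beside 16.6% of all genes. DESeq2 called 9 lower there, beside 6.14% of all genes called in either direction. In R-HNK against injured saline mice 2 had such an edgeR p, beside 7.47%, and in R-HNK against sham mice 0 did, beside 3.53%. Isl1, a transcription factor of D1 striatal neurons, had 0 counts in R-HNK mouse 2, injured saline mouse 3 and sham mouse 1. Markers of the labelled cortex were present in all libraries, with 7 excitatory cortical neuron genes summing to 5270 to 5350 CPM in R-HNK mice, 5420 to 6020 in injured saline mice and 4720 to 5760 in sham mice. These markers were not level between groups. Of the 7, Neurod6, a transcription factor of cortical pyramidal neurons, rose in injured saline against sham mice (0.70 ± 0.11, edgeR adjusted p = 0.00901). There 4 had an unadjusted edgeR p under 0.05, beside 16.6% of all genes, and DESeq2 called 4 higher, beside 6.14%. Of 7 deep-layer neuron genes 2 rose there, Fezf2, a transcription factor of subcerebral projection neurons (0.87 ± 0.14, edgeR adjusted p = 0.0173), and Rprm (0.60 ± 0.09, adjusted p = 0.0091). The 7 did not move together. Their median log2 fold change was 0.09, and 4 had an unadjusted edgeR p under 0.05. Of these, Syt6 (-0.46 ± 0.11, edgeR adjusted p = 0.0737) and Bcl11b (-0.45 ± 0.19, adjusted p = 0.288) were lower in injured saline mice. Neurod6 averaged 119 CPM in injured saline and 73.7 CPM in sham mice, Fezf2 67.4 and 37.0 CPM, and Rprm 82.0 and 54.3 CPM. Neurod6 passed adjusted for the striatal score, where none of the 7 deep-layer genes did, and in the striatum-low libraries none of the 14 passed. Each of these 3 calls was also lost without sham mouse 2 or injured saline mouse 2, that of Fezf2 without sham mouse 3 and those of Neurod6 and Fezf2 without injured saline mouse 3 (edgeR adjusted p from 0.052 to 0.1). In bulk tissue, fewer cells of a type and less RNA per cell cannot be told apart.

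**Figure D1:**
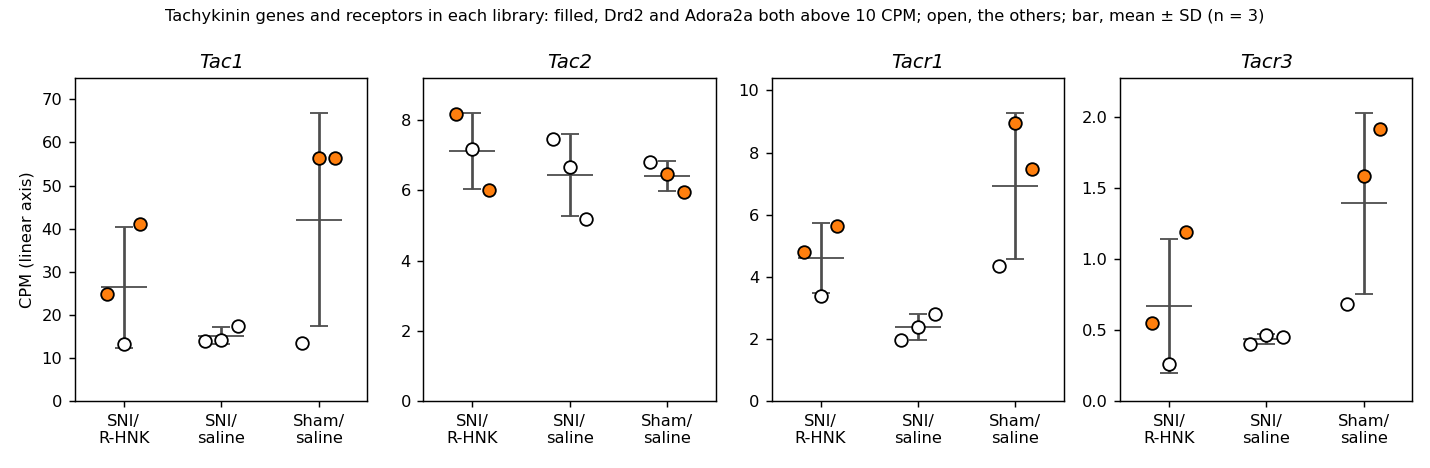
CPM on linear axes (one scale per panel) for Tac1, Tac2, Tacr1 and Tacr3 in each library, by group. Circles are libraries, filled where Drd2 and Adora2a both exceed 10 CPM, and horizontal bars with whiskers are means ± SD (n = 3). For Tac1 the filled circles lie at 24.8 CPM or above and the open ones at 17.5 CPM or below, whereas for Tac2 the 2 kinds are mixed.

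Tac1, the precursor of substance P, was high in the striatum-high libraries and nowhere else. It measured 24.8, 13.2 and 41.1 CPM in R-HNK mice 1, 2 and 3, 13.9, 14.2 and 17.5 CPM in the injured saline mice, and 13.5, 56.4 and 56.3 CPM in sham mice 1, 2 and 3. The sham and R-HNK groups each contained both low and high libraries, so every pair of groups overlapped. Drd1, the D1 receptor, was likewise highest in sham mice 2 and 3 and R-HNK mice 1 and 3, with 23.9, 9.04 and 29.8 CPM in R-HNK mice, 9.03, 13.7 and 17.1 CPM in injured saline mice and 8.82, 50.0 and 45.1 CPM in sham mice. Among the 5 striatum-low libraries Tac1 spanned 13.2 to 17.5 CPM, and among the 4 striatum-high libraries 24.8 to 56.4 CPM, a 3.08-fold ratio of means.

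No comparison of Tac1 between groups passed. Injured saline mice averaged 15.2 ± 2.01 CPM and sham mice 42.1 ± 24.7 CPM, a log2 fold change of -1.47 ± 0.64 (SE, edgeR adjusted p = 0.322). R-HNK mice averaged 26.4 ± 14.0 CPM, which differed from injured saline mice by 0.79 ± 0.63 (edgeR adjusted p = 0.805) and from sham mice by -0.67 ± 0.62 (adjusted p = 1). The 95% interval of the first difference ran from -3.00 to 0.07. With the mean log2 level of the 13 striatal markers (the striatal score) in the model, the first 2 differences turned sign, to 0.16 ± 0.20 and -0.31 ± 0.17. Without the 4 striatum-high libraries they were 0.18 ± 0.18 and -0.21 ± 0.18, set against 1 sham and 1 R-HNK mouse.

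Tac2, the neurokinin B precursor, had the most even levels of the 4. It measured 8.16, 7.17 and 6.00 CPM in R-HNK mice 1, 2 and 3, 7.46, 6.65 and 5.18 CPM in the injured saline mice, and 6.79, 6.46 and 5.95 CPM in the sham mice. In each group the level fell from mouse 1 to mouse 2 to mouse 3. All 3 groups overlapped, and the striatum-high and striatum-low libraries did too (ratio of means 0.999). The log2 difference between injured saline and sham mice was 0.01 ± 0.17, with a 95% interval of -0.36 to 0.37 (edgeR adjusted p = 0.99). R-HNK mice differed from injured saline mice by 0.15 ± 0.17 (-0.22 to 0.51, adjusted p = 0.867) and from sham mice by 0.15 ± 0.17 (-0.22 to 0.52, adjusted p = 1).

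Tacr1, the substance P receptor, fell in injured saline mice. It measured 1.98, 2.40 and 2.81 CPM in injured saline mice 1, 2 and 3, against 4.34, 8.95 and 7.48 CPM in sham mice 1, 2 and 3. These levels rest on 114 to 181 counts per injured saline mouse and 254 to 514 per sham mouse. The 2 groups did not overlap. The means were 2.40 ± 0.415 and 6.92 ± 2.35 CPM, a log2 fold change of -1.53 ± 0.27 with a 95% interval of -2.12 to -0.94 (edgeR adjusted p = 0.0204). Of the 4 tachykinin genes 1 passed in this comparison, where 1.07% of all tested genes passed in either direction and 0.556% passed as lower. Of the 4 genes 2, Tacr1 and Tacr3, had an unadjusted edgeR p under 0.05, beside 16.6% of all genes, and 0 were called higher, beside 0.515%. DESeq2 called 1 of the 4, Tacr1, and 6.14% of all genes. The smallest p that a 2-sided exact permutation test allows for 3 mice against 3 is 0.1, which is also what Tacr1 gave.

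Tacr1 also differed by striatal markers, at 4.81 to 8.95 CPM in the 4 striatum-high and 1.98 to 4.34 CPM in the 5 striatum-low libraries, with a 2.25-fold ratio of means. The share of all genes that differ in this way was not counted, for Tacr1 or for Tac1. The difference between injured saline and sham mice was smaller in fits that take these markers into account, and kept its direction. Adjusted for the striatal score it was -0.85 ± 0.24 (edgeR adjusted p = 0.223), in a fit in which 0.4% of genes passed. In the 5 striatum-low libraries alone it was -0.85 ± 0.31 (adjusted p = 0.505), where 0.368% of genes passed and the sham group is 1 mouse, assumed to vary like the others. Within the striatum-low libraries the 3 injured saline mice, at 1.98 to 2.81 CPM, lay below R-HNK mouse 2 at 3.39 CPM and sham mouse 1 at 4.34 CPM, while for Tac1 they lay above both. Tacr1 also missed the threshold when sham mouse 2 (adjusted p = 0.0952), sham mouse 3 (0.0781) or injured saline mouse 1 (0.0771), 2 (0.115) or 3 (0.0719) was left out, fits in which 0.275%, 0.381%, 0.592%, 0.279% and 0.266% of all genes passed. Over all 17 alternatives its adjusted p ran from 1.12e-05, with DESeq2, to 1.

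R-HNK mice had Tacr1 levels between those of the other 2 groups. They measured 4.81, 3.39 and 5.64 CPM, all above the 1.98 to 2.81 CPM of the injured saline mice. The difference of 0.94 ± 0.27 (95% interval 0.36 to 1.53) had an unadjusted p of 0.00418 and did not pass after adjustment in edgeR (adjusted p = 0.388). In this comparison 0.119% of all genes passed (0.0368% higher and 0.0827% lower), and none of the 4 tachykinin genes did, with edgeR or with DESeq2 (0.542% of all genes). Of the 4, 1 had an unadjusted edgeR p under 0.05, beside 7.47% of genes, 1 was higher without overlap, beside 7.15%, and 0 were lower without overlap, beside 6.59%; the 1 was Tacr1 each time. The difference was 0.47 ± 0.21 adjusted for the striatal score and 0.49 ± 0.31 in the striatum-low libraries, where 0.119% and 0.158% of genes passed and Tacr1 did not. Both differences use the same injured saline mice, so they are not independent. Against sham mice the R-HNK value was -0.59 ± 0.26 (edgeR adjusted p = 1), with overlapping groups, in a comparison where 0.00459% of genes passed with edgeR and 0.0475% with DESeq2 and none of the 4 did with either. Of the 4, 1 (Tacr1) had an unadjusted edgeR p under 0.05, beside 3.53% of genes, and 0 were higher or lower without overlap, beside 4.43% and 4.42%. Within the striatum-high libraries R-HNK mice 1 and 3, at 4.81 and 5.64 CPM, were below sham mice 2 and 3, at 8.95 and 7.48 CPM (-0.65 ± 0.19, edgeR adjusted p = 0.302, with 0.222% of genes passing).

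**Figure D2:**
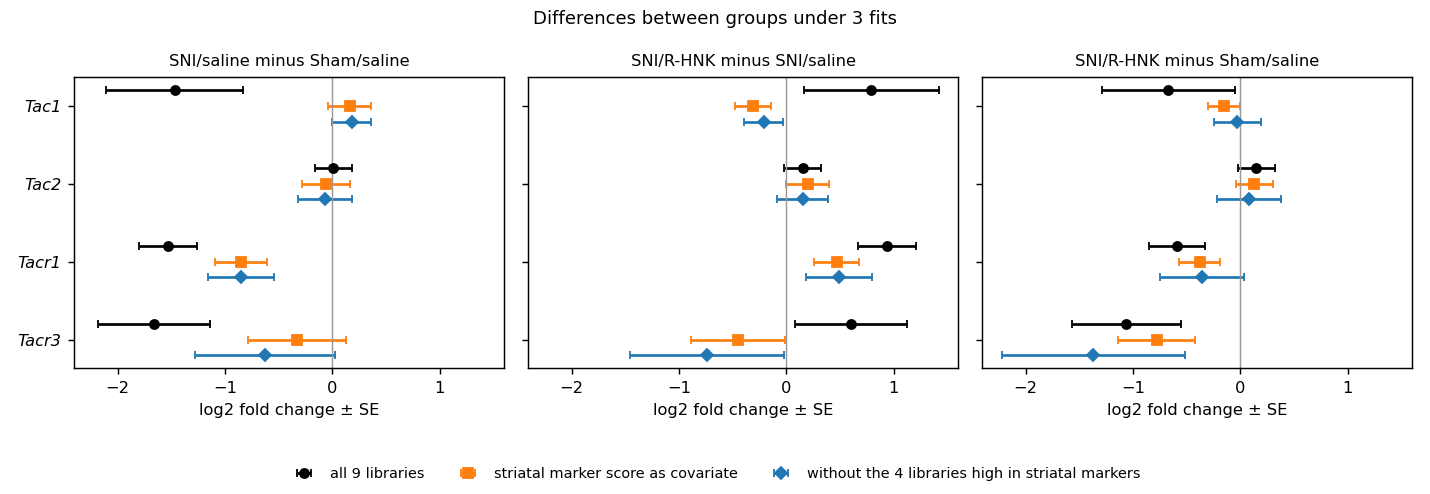
Log2 fold changes ± SE (horizontal axis) of the 4 genes in each comparison, in the fit to all 9 libraries (black), the fit adjusted for the striatal score (orange) and the fit to the 5 striatum-low libraries (blue). Tacr1 keeps its side of 0 in each panel, while Tac1 is at -1.47 in black and at 0.16 and 0.18 in the other colours of the left panel.

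Tacr3, the neurokinin B receptor, was the least abundant of the 4. It measured 0.554, 0.263 and 1.19 CPM in R-HNK mice 1, 2 and 3, 0.400, 0.467 and 0.451 CPM in the injured saline mice, and 0.684, 1.58 and 1.91 CPM in the sham mice, each level resting on 17 to 105 counts. Injured saline and sham mice did not overlap, but the difference of -1.66 ± 0.52 (95% interval -2.79 to -0.53) did not pass in edgeR (adjusted p = 0.14). Thus 2 of the 4 genes, Tacr1 and Tacr3, were lower without overlap in injured saline mice, beside 10.9% of all tested genes. The Tacr3 value was -0.33 ± 0.46 adjusted for the striatal score and -0.63 ± 0.65 in the striatum-low libraries. Over all groups Tacr3 spanned 0.554 to 1.91 CPM in the striatum-high and 0.263 to 0.684 CPM in the striatum-low libraries, a 2.89-fold ratio of means. It passed when sham mouse 1, which is striatum-low, was left out (-1.98, adjusted p = 0.0417), a fit in which 5.19% of all genes passed.

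R-HNK mice did not stand apart from either group in Tacr3. Their difference from injured saline mice was 0.60 ± 0.52 (edgeR adjusted p = 0.814), and R-HNK mouse 2 was below all injured saline mice. It turned to -0.45 ± 0.44 adjusted for the striatal score, to -0.74 ± 0.72 in the striatum-low libraries and to -0.10 without R-HNK mouse 3. The difference from sham mice was -1.06 ± 0.51 (adjusted p = 1).

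Markers of other cells also differed between the groups. A set of 10 genes of immature neurons, put together with earlier results of these data known, summed to 178, 213 and 167 CPM in R-HNK mice, 110 to 115 CPM in injured saline mice and 204 to 230 CPM in sham mice. All 10 fell in injured saline mice against sham mice (median log2 fold change -1.37, against -0.02 over all genes). Among them were Sp9, a zinc finger transcription factor of developing interneurons (-1.43 ± 0.14, edgeR adjusted p = 0.000421), Dlx1 (-0.68 ± 0.08, adjusted p = 0.00215) and Dlx2 (-1.31 ± 0.16, adjusted p = 0.00218), homeodomain factors of the same cells, and Igfbpl1, related to the binding proteins of insulin-like growth factors (-3.05 ± 0.37, adjusted p = 0.00302). In R-HNK against injured saline mice all 10 were higher with an unadjusted edgeR p under 0.05, beside 7.47% of all genes. Of the 10, 5 passed as higher, beside 0.0368%. In injured saline against sham mice fewer passed as lower adjusted for the striatal score (7) or in the striatum-low libraries, where the sham group is 1 mouse. With the score of these 10 genes in the model the SE of the Tacr1 difference widened to 1.56, and their part in the Tacr1 difference cannot be told apart from the group. Within the R-HNK group, R-HNK mouse 2 had the highest sum of the 3, at 213 CPM, and the lowest Tacr1 (3.39 CPM) and Tacr3 (0.263 CPM). That mouse was also the only striatum-low library of its group, so immature neuron and striatal markers cannot be told apart there.

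Markers of astrocytes, meningeal fibroblasts and oligodendrocytes varied too. The 5 astrocyte genes summed to 760, 731 and 877 CPM in R-HNK mice, 755, 644 and 663 CPM in injured saline mice and 791, 938 and 952 CPM in sham mice, so that injured saline and sham mice did not overlap. None of the 5 passed in edgeR. In injured saline against sham mice 4 had an unadjusted edgeR p under 0.05, beside 16.6% of all genes. DESeq2 called 3 lower there, beside 6.14% of all genes called in either direction. The 5 meningeal genes summed to 41.9, 28.7 and 37.2 CPM in R-HNK mice, 25.1, 25.6 and 21.8 CPM in injured saline mice and 48.8, 35.0 and 54 CPM in sham mice, and 2 of them, the growth factor Igf2 (-1.01 ± 0.16, edgeR adjusted p = 0.00991) and the collagen Col1a1 (-1.02 ± 0.21, adjusted p = 0.038), fell in injured saline against sham mice. Igf2 missed the threshold without injured saline mouse 2 or 3, and Col1a1 without any 1 of sham mice 2 and 3, the 3 injured saline mice or R-HNK mice 1 and 3. The group means of that sum were ordered as for Tacr1, but so were those of the astrocyte, oligodendrocyte, striatal and immature neuron sums. The order was thus not particular to any 1 of these cell types. The 5 oligodendrocyte genes summed to 4450, 3090 and 5990 CPM in R-HNK mice, 2960 to 4180 CPM in injured saline mice and 2950, 5610 and 6180 CPM in sham mice. None of them passed in edgeR or DESeq2, and 0 had an unadjusted edgeR p under 0.05. The part of these cell types in the Tacr1 difference was not tested.

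Neurons known to carry NK1 receptors gave mixed readings. The 5 cholinergic markers summed to 4.29, 2.18 and 5.51 CPM in R-HNK mice, 1.04 to 1.88 CPM in injured saline mice and 1.66, 14.0 and 14.6 CPM in sham mice 1, 2 and 3. None of the 5 passed in edgeR between any groups. In injured saline against sham mice all 5 had an unadjusted edgeR p under 0.05, beside 16.6% of all genes. DESeq2 called 3 of the 5 lower there, beside 6.14% of all genes called in either direction. Lhx8, a transcription factor that defines these cells, had 0 counts in 6 libraries. Of the 4 markers of cortical somatostatin and nitric oxide synthase neurons none passed in edgeR. In injured saline against sham mice 1 had an unadjusted edgeR p under 0.05, and in R-HNK against injured saline mice 1. The shares of all genes were 16.6% and 7.47%. DESeq2 called 1 in each, beside 6.14% and 0.542% of all genes. The 4 markers summed to 318 to 400 CPM in R-HNK mice, 314 to 362 in injured saline mice and 299 to 355 in sham mice. Within that set Nos1, the synthase, measured 82.0, 48.7 and 85.2 CPM in R-HNK mice, 51.2, 43.1 and 44.7 CPM in injured saline mice and 64.2, 74.5 and 90.7 CPM in sham mice. Its difference between injured saline and sham mice was -0.72 ± 0.22 (edgeR adjusted p = 0.159), and that of Sst, somatostatin, 0.20 ± 0.10 (adjusted p = 0.375). Whether any of these cells carried the Tacr1 difference was not tested.

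**Figure D3:**
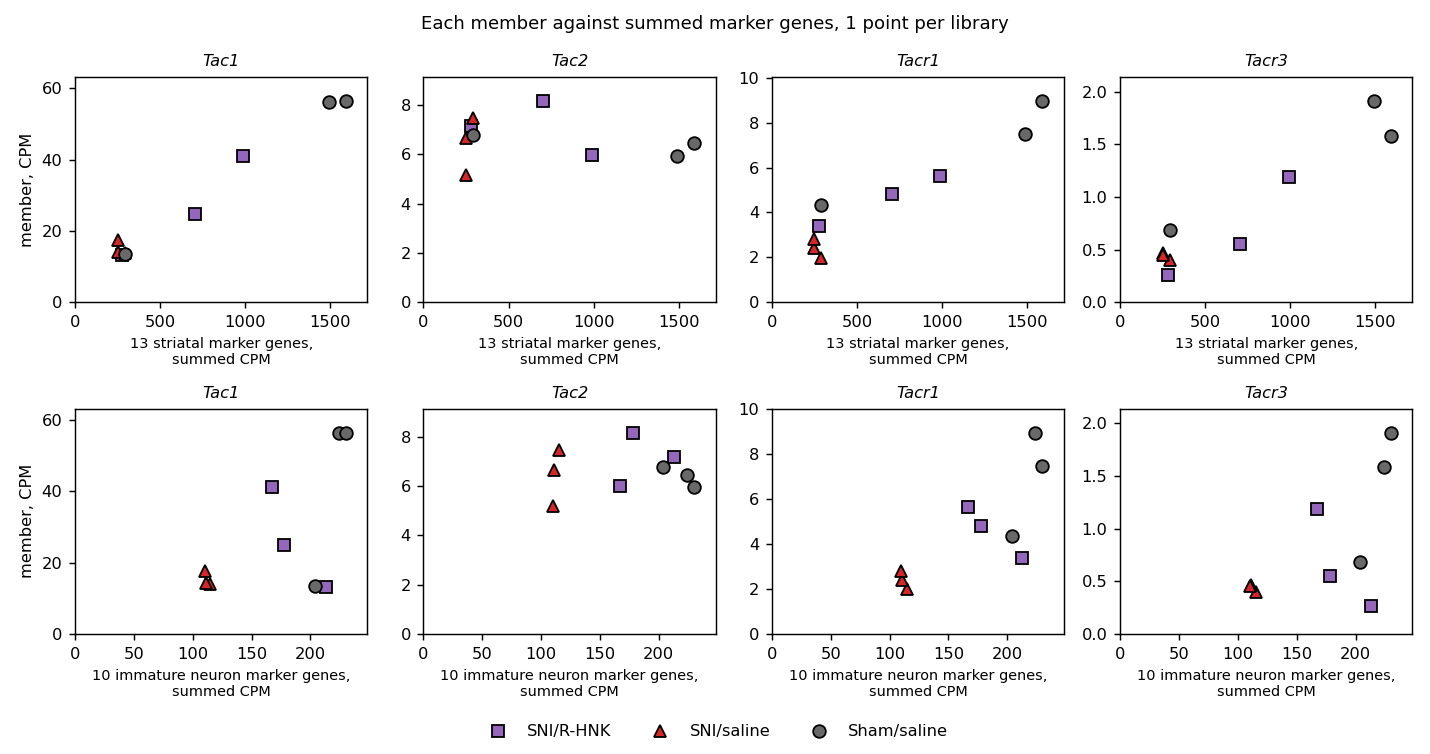
CPM of each member (vertical axes) against the summed CPM of 13 striatal markers (top) and 10 immature neuron markers (bottom), 1 point per library, with squares for R-HNK, triangles for injured saline and circles for sham mice. Tac1, Tacr1 and Tacr3 are highest in the 2 sham libraries with the most striatal markers and Tac2 is not, and the injured saline triangles for Tacr1 (1.98 to 2.81 CPM) are its lowest points.

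The rest of the family was scarce. Tacr2, the NK2 receptor, which prefers neurokinin A, had 15 to 25 counts in R-HNK mice, 9 to 12 in injured saline mice and 5 to 22 in sham mice. Its log2 differences were 0.63 ± 0.69 between R-HNK and injured saline mice and -0.25 ± 0.70 between injured saline and sham mice (edgeR adjusted p = 0.856 and 0.898). Tac4, the hemokinin precursor, had 0 counts in 7 libraries and 3 counts in injured saline mouse 2 and in sham mouse 3, and was too low to test.

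Of the genes that make, break down and relay tachykinin signals, 1 passed in any comparison. Over 5 lists of such genes, Tacr2 and Tac4 included, 34 of 35 could be tested. In injured saline against sham mice 1 rose and 33 did not pass, with a median log2 fold change of 0.00 against -0.02 over all genes, over members that differed in both directions. Of the 34, 9 had an unadjusted edgeR p under 0.05, beside 16.6% of all genes, and DESeq2 called 2 higher and 2 lower, beside 6.14% of all genes. None of the 34 passed in R-HNK against injured saline mice, where 2 had an unadjusted edgeR p under 0.05, beside 7.47% of all genes. None passed in R-HNK against sham mice, where 0 had such a p, beside 3.53%. DESeq2 called 0 in both, beside 0.542% and 0.0475% of all genes. The gene that rose was Grk2, a kinase that desensitises activated NK1 receptors among many others. It measured 307, 304 and 302 CPM in the injured saline mice, against 265, 247 and 240 CPM in the sham mice, without overlap. This was a log2 fold change of 0.28 ± 0.06 (edgeR adjusted p = 0.0478). Grk2 missed the threshold adjusted for the striatal score (0.23, edgeR adjusted p = 0.325), in the striatum-low libraries (0.20, adjusted p = 0.64) and without any 1 of sham mice 2 and 3, the 3 injured saline mice or R-HNK mice 1 and 3.

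Among the 6 peptide-processing genes none passed in edgeR in any comparison. Pcsk1, a convertase that cuts neuropeptide precursors, averaged 70.7 CPM in injured saline mice and 48.1 CPM in sham mice (0.56 ± 0.18, edgeR adjusted p = 0.166). Sham mice 1, 2 and 3 measured 59.6, 46.7 and 38.0 CPM, and R-HNK mice 1, 2 and 3 45.4, 63.4 and 46.6 CPM. Pcsk1 was thus lower in each striatum-high library than in any striatum-low one. Among the 7 peptide-degrading genes none passed. In injured saline against sham mice they differed in both directions, with a median log2 fold change of 0.08. Mme, neprilysin, which cleaves substance P, averaged 5.84 CPM in injured saline mice and 11.4 CPM in sham mice (-0.97 ± 0.33, edgeR adjusted p = 0.196). These groups overlapped, with 6.2 CPM in sham mouse 1 and 17.8 and 10.2 CPM in the striatum-high sham mice 2 and 3. Of 12 genes of Gq signalling none passed, and the smallest p was that of Prkca in injured saline against sham mice, a protein kinase C (-0.36 ± 0.11, adjusted p = 0.138).

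The genes whose log2 CPM followed each tachykinin gene most closely over the 9 libraries were ranked by Pearson correlation among 13494 candidates (13495 for Tacr3). The libraries share groups and striatal content, so r is a description of likeness only. For Tac1 they were Zfp503, Gprin3, Wipf1, Adcy5 and Ntn1, with r from 0.985 to 0.997. Adcy5, an adenylyl cyclase abundant in striatum, measured 295, 185 and 370 CPM in R-HNK mice, 208, 193 and 198 CPM in injured saline mice and 202, 477 and 477 CPM in sham mice. For Tacr1 Mtss1, Dhx40, Add3 and Abat had r from 0.964 to 0.987. Mtss1, an actin-regulating protein at the cell membrane, measured 38.9, 37.1 and 39.5 CPM in R-HNK mice, 33.2, 34.6 and 35.6 CPM in injured saline mice and 39.1, 42.1 and 41.5 CPM in sham mice. It was picked for its likeness to Tacr1, so having the injured saline mice lowest, as Tacr1 does, is no separate result. For Tacr3 they were Aff1, Afg3l1, Bche, Lingo3 and Xrcc3 (r 0.955 to 0.976), and for Tac2 Npm3, Dhx38, Tamm41, Cela1 and Ccbe1 (r 0.882 to 0.914). None of the genes named here for their likeness passed between any groups, and the smallest adjusted p among them in edgeR was 0.0737, for Abat between injured saline and sham mice.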

How the data were processed

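The deposited table holds expected counts, whole numbers with a gene symbol on each line, that the authors did not normalize. Of the symbols, 107 stand on more than 1 line (216 lines), and each such line was kept apart. The submitters' processing notes name HISAT2 2.0.5, featureCounts 1.5.0-p3 and mm10, while the name of the table gives StringTie. Strand and pair handling are not given in the sources used here. Genes were kept by filterByExpr (21765 genes, 99.96% of counts), given TMM factors of 0.979 to 1.03, and tested over all 9 libraries in R 4.3.3 with edgeR 4.0.16, robust quasi-likelihood, 1 mean per group, with Benjamini-Hochberg adjustment over all genes and a threshold of 0.05. SE were worked back from the F statistic. Exon lengths and loci came from GENCODE M21 (GRCm38). The fit was tested on simulated counts with known changes. Those counts held no split into striatum-high and striatum-low libraries, so the test does not speak for data with that split.

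The genes and lists were chosen with earlier results of these data known. Named besides the 4 genes were list members that passed (up to 4 per list by p), Tac4, Tacr2, chosen markers, and the 5 genes with the highest correlation per member, of which 1 is not reported here. Isl1, Lhx8, Pcsk1, Mme, Prkca, Syt6, Bcl11b, Syt2, Cox6a2, Pthlh, Calb2, Htr3a and Cck were named after their values were seen. Alternatives were relative log expression scaling, no filter, DESeq2 1.42.0, a replicate block, 2 groups alone, each library left out, a striatal score (mean centred log2 CPM of 13 markers) as a covariate, the striatum-low or striatum-high libraries alone, and, added after seeing the data, an immature neuron score.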

Additional observations from a re-analysis of the deposited data

How the results depend on the processing

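Of 208 refits of the 4 genes, 185 kept direction and side of the threshold, 8 lost the Tacr1 call and 1 gained a Tacr3 call. The other 14 turned sign, all among values that did not pass. In the fit to all libraries only Tacr1 between injured saline and sham mice passed, and that call was lost in 8 of its 17 refits. Most of the 185 were thus values that passed in neither fit. Tacr1 kept its direction in all 52. With 1 library left out, the injured saline against sham values ran from -1.76 to -1.29 for Tacr1, -1.98 to -1.36 for Tacr3 and -0.10 to 0.14 for Tac2, and R-HNK against injured saline from -0.10 to 0.98 for Tacr3. With the striatal score as a covariate, injured saline against sham gave -0.85 for Tacr1, 0.16 for Tac1 and -0.06 for Tac2, and R-HNK against injured saline -0.31 for Tac1 and -0.45 for Tacr3. Without the striatum-high libraries these were -0.85, 0.18, -0.07, -0.21 and -0.74. With the immature neuron score as a covariate, added after seeing the data, Tacr1 was -1.41 ± 1.56, Grk2 0 and Rprm -0.12 between injured saline and sham mice, and Tac2 -0.22 between R-HNK and injured saline mice. The score separated the injured saline mice from the others, so group and score could hardly be parted in that fit.

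In injured saline against sham mice 233 genes were called, in R-HNK against injured saline mice 26 and in R-HNK against sham mice 1. DESeq2 called 1138, 136 and 11. The first count was 370 without a filter, 87 with the striatal score, 86 without the striatum-high libraries and 0 with the immature neuron score (3611 had an unadjusted edgeR p under 0.05 in the fit to all libraries). The R-HNK against injured saline count was 53 with the 2 groups alone and 0 with the immature neuron score (1625 unadjusted). That of R-HNK against sham mice was 25 in the striatum-low and 47 in the striatum-high libraries and 2 with the immature neuron score. With 1 library left out the ranges were 60 to 1170, 7 to 56 and 1 to 11.

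Replicate numbers are shared between groups, but over all tested genes same-numbered libraries did not deviate together (correlations -0.10 to 0.09). They were therefore not taken as pairs. These correlations do not speak for any 1 gene, and Tac2 fell from mouse 1 to mouse 2 to mouse 3 in each group. Why it did so was not tested. With a replicate block the 2 R-HNK comparisons had 16 and 2 calls, Tac2 between injured saline and sham mice was -0.01, and Grk2 missed the threshold (adjusted p = 0.0783). The cause of these shifts was not tested, except that leaving out libraries leaves fewer mice. Tacr3, Tacr2 and Tac4 are limited by counts of 0 to 105 per library.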

Other observations

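Interneuron classes that are known to include tachykinin-expressing cells in mouse cortex were read beside the 4 genes. Of 4 markers of parvalbumin interneurons, part of which express Tac1, none passed in edgeR in any comparison. In injured saline against sham mice 1 had an unadjusted edgeR p under 0.05, beside 16.6% of all genes. DESeq2 called 1 higher there, beside 6.14% of all genes called in either direction. Pvalb itself measured 20.0, 33.9 and 25.7 CPM in R-HNK mice, 35.5, 42.4 and 38.2 CPM in injured saline mice and 29.4, 22.8 and 16.0 CPM in sham mice, without overlap between injured saline mice and either other group (0.77 ± 0.24 against sham mice, edgeR adjusted p = 0.172). Its group mean was thus highest in injured saline mice. Against sham mice, Syt2 (0.31 ± 0.55, edgeR adjusted p = 0.831) and Cox6a2 (0.35 ± 0.20, adjusted p = 0.413) also lay higher in injured saline mice. Pthlh lay lower there (-0.27 ± 0.26, edgeR adjusted p = 0.658). Whether these cells had a part in the Tac1 values was not tested. Of 6 markers of Vip and related interneurons, among which Tac2 is found, none passed in edgeR, 2 had an unadjusted p under 0.05 in injured saline against sham mice, and DESeq2 called 1 higher and 1 lower there. Their sum was 394 to 539 CPM in R-HNK mice, 498 to 543 in injured saline mice and 335 to 498 in sham mice. Vip measured 23.0 to 35.0 CPM in R-HNK mice, 28.2 to 29.4 in injured saline mice and 23.6 to 31.0 in sham mice (0.10 ± 0.14 for injured saline against sham mice, edgeR adjusted p = 0.764), and all groups overlapped. Other members of the 6 moved in both directions in that comparison. Calb2 (-1.47 ± 0.39, edgeR adjusted p = 0.14) and Htr3a (-0.39 ± 0.20, adjusted p = 0.352) were lower in injured saline mice, and Cck was higher (0.51 ± 0.15, adjusted p = 0.134).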
